A study of Danio rerio with 6 samples.

Results

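The 46 probes described here carry microRNA (miRNA) names given in zebrafish. They are 21 probes named miR-722 to miR-740, here called registered, and 25 probes named ZF_miR_1 to ZF_miR_25, out of 243 zebrafish probes on the array. The rule that picks them uses the probe name and no measured value, although this set of names was taken up with earlier results of these data known. The registered set has a probe for each of 19 numbers, and miR-723 and miR-727 also have a probe for the star strand, the opposite arm of the same hairpin. The sources used here do not say what the prefix ZF_miR stands for. None of the 46 probe names also listed a miRNA of another species, whereas 125 of the 197 other zebrafish probes did.

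Whole embryos developed in plain system water (control), in 1% ethanol or in 1.5% ethanol from 4 h to 24 h after fertilisation, and were collected at 24 h. Each of these 3 groups had 2 arrays, labelled as replicates 1 and 2, so 6 arrays were read in 1 colour. The sources used here call the replicates biological but do not say how many embryos gave each RNA sample or whether clutches were separate, so p-values measure the spread between these arrays. RNA of whole embryos mixes all tissues, so fewer cells of a type and less RNA per cell cannot be told apart.

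A miRNA is a short RNA cut from a hairpin precursor. It guides a silencing complex to messenger RNAs that pair with its seed, the bases near its 5′ end, and lowers their translation or stability. Many miRNA genes lie inside introns of protein-coding genes and can be transcribed together with their host. In zebrafish, miR-722 is known to target rac2, which encodes a GTPase of migrating neutrophils, and miR-731 is known as the partner of miR-462 in a fish-specific pair induced by interferon.

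RefSeq's zebrafish gene table (GRCz12tu) held an entry for 18 of the 19 registered numbers. The number without a match was miR-739, and none of the 25 ZF_miR names matched. Of the 18 genes, 13 lie within the span of another gene. Several of the genes around or beside them encode proteins of muscle or of light detection. miR-736 lies within myh7, a myosin heavy chain of slow and heart muscle, and next to myh7l. miR-726 lies within a long non-coding RNA gene beside opn1lw1, which encodes a red-sensitive cone opsin. miR-727 and miR-728 are neighbours within tmtopsb, which encodes an opsin found in many teleost tissues, and miR-729 is next to opn1sw1, which encodes the ultraviolet-sensitive cone opsin. miR-737 lies within ap2m1b, a subunit of the clathrin adaptor AP-2, miR-724 within cpne5b, a calcium-dependent membrane-binding protein, and miR-722 within gcgrb, a glucagon receptor. The entry for miR-735 now bears the symbol rny2, the name of a Y RNA, and that for miR-733 lists the vault RNA name vtrna4 as a synonym. miR-738 lies within the spans of a long non-coding RNA gene and a ribosomal RNA gene. The arrays did not measure the host transcripts.

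Each probe was printed as 4 spots. The limit of detection on an array was set at the 95th percentile of its spots that carried no probe (empty or blank), and a probe is called detected there if no fewer of its kept spots lay over this limit than under it. Both the limit and the spots were taken as raw intensity, without correction for local background. The limit was 451 and 276 intensity units in control, 350.2 and 335 units with 1% ethanol, and 392 and 256 units with 1.5% ethanol, replicate 1 before replicate 2 in each group, as in all lists of levels here. The spots of the 46 probes had medians of 216 and 150 units (control), 138 and 165 units (1% ethanol), and 184 and 146 units (1.5% ethanol). Most of these spots were thus dimmer than the limit. As a check of the labelled material, the early-embryo miR-430b, the neural miR-9, the muscle miR-1 and the epidermal miR-203a were detected on all 6 arrays. Neural miR-124 was detected on 1 array, and epidermal miR-205, endothelial miR-126 and hepatic miR-122 on 0.

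Of the 21 registered probes, 5 and 4 were detected in control, 3 and 6 with 1% ethanol, and 4 and 5 with 1.5% ethanol. Of the 25 ZF_miR probes, 2 and 1 were detected in control, 0 and 2 with 1% ethanol, and 7 and 2 with 1.5% ethanol. The registered share ran from 14.3% to 28.6% per array, lowest on 1% ethanol replicate 1 and highest on 1% ethanol replicate 2. The ZF_miR probes had 1 array set apart from the rest. It was 1.5% ethanol replicate 1, with 28% of the ZF_miR probes detected, against 0% to 8% on each of the other 5 arrays. That array had the second highest limit, 392 units, and 22.9% of its ZF_miR spots exceeded it, against 6.19% to 12.5% on the other arrays. The second 1.5% ethanol array lay within the range of the other groups, so the high count belongs to a single array. These counts use raw intensity, and the part of local background in them was not tested.

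Counted over arrays, 9 of the 21 registered probes were detected at least once, 2 on all 6 arrays and 12 on none. Of the 25 ZF_miR probes, 9 were detected at least once, 0 on all 6 arrays and 16 on none. With the limit at the 99th percentile, 5 registered and 1 ZF_miR probe were detected at least once, and with every kept spot required to exceed the limit, 4 and 1. For comparison, 66 of the 197 other zebrafish probes were detected at least once and 26 on all 6 arrays. Of 182 probes whose names list only worm or insect miRNAs, 42 were detected at least once and 20 on all 6 arrays, at 12.6% to 18.1% per array. The registered probes, at 14.3% to 28.6% per array, overlapped this range, while the ZF_miR probes, at 0% to 8%, lay below it on 5 of the 6 arrays. Possible cross-hybridisation of the worm and insect probes was not tested.

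Levels are given from here on as normalised log2 intensity, the mean of a probe's kept spots after background correction and quantile normalisation. The median level of the registered probes was 7.37 and 7.32 in control, 7.31 and 7.28 with 1% ethanol, and 7.42 and 7.43 with 1.5% ethanol. That of the ZF_miR probes was 7.35 and 7.34 in control, 7.39 and 7.45 with 1% ethanol, and 7.39 and 7.29 with 1.5% ethanol. The medians of the 2 subclasses thus covered overlapping ranges, 7.28 to 7.43 and 7.29 to 7.45, and showed no order by dose. The other zebrafish probes had medians between 7.43 and 7.52.

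The 3 pairwise comparisons ask whether either ethanol dose shifted these miRNAs and whether the doses differed. The comparisons with control share the control arrays. A linear model of the 3 groups was fitted with limma over all 243 zebrafish probes, with p-values adjusted by the Benjamini-Hochberg method and a threshold of 0.05. No member passed in any comparison of this fit. The 6 arrays lay on 3 slides, each with 2 arrays of different groups. With the slide as a block, 3 of the 243 probes were called for 1% ethanol against control, of which 1 was a member. For 1.5% ethanol against control 2 were called, of which 2 were members. For 1.5% against 1% ethanol 4 were called (2 members) and for any difference 6 (3 members). That block fit gave every probe the same spread and left fewer residual degrees of freedom than the fit without it. In the fit without a block, 0 of the 46 passed for 1% ethanol against control (background 0.412% of the 243 probes). The lowest adjusted p of a member there was 0.676. For 1.5% ethanol against control, 0 passed (background 0%), with a lowest adjusted p of 0.38. For 1.5% against 1% ethanol, 0 passed (background 0%), with a lowest adjusted p of 0.291. For any difference among the groups, 0 passed (background 0.412%). An exact permutation test of 2 arrays against 2 cannot give a p below 0.333, so single probes rest on the model.

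At an unadjusted p under 0.05, limma listed 4 of 46 members for 1% ethanol against control (background 6.17%). miR-725, ZF_miR_15 and ZF_miR_22 were higher (3, background 2.06%) and miR-736 was lower (1, background 4.12%). For 1.5% ethanol against control it listed 1 (background 4.94%), ZF_miR_9, which was higher (background 1.65%), and 0 lower (background 3.29%). For 1.5% against 1% ethanol it listed 3 (background 7.41%), of which miR-736 and ZF_miR_9 were higher (2, background 4.53%) and ZF_miR_22 was lower (1, background 2.88%). For any difference it listed miR-736, ZF_miR_9, ZF_miR_15 and ZF_miR_22, 4 of 46 (background 5.76%). Over both directions the members' shares were near the background in each comparison.

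Groups without overlap were also counted. With 1% ethanol both arrays lay above both control arrays for 7 members (background 20.6%) and below them for 11 (background 16.9%). With 1.5% ethanol the counts were 7 above (background 11.5%) and 9 below (background 17.3%). For 1.5% against 1% ethanol they were 9 above (background 15.2%) and 7 below (background 16.5%). The 2 subclasses had similar medians of log2 difference. Registered and ZF_miR probes had medians of 0.05 and −0.04 for 1% ethanol minus control, 0.13 and 0.03 for 1.5% ethanol minus control, and 0.06 and 0.02 for 1.5% minus 1% ethanol. Over all 243 probes these medians were 0.002, 0.009 and −0.04. The median standard error (SE) of a member's log2 difference was 0.23.

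Of the 46 probes, 5 were detected on at least 5 arrays: miR-726 and miR-737 on all 6, miR-724 on all but 1.5% ethanol replicate 1, and miR-736 and ZF_miR_20 on all but 1% ethanol replicate 1. Their values follow array by array and then spot by spot.

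miR-726, the neighbour of the red cone opsin gene, separated the arrays by replicate number and not by dose. Its level was 12.53 and 10.15 in control, 12.11 and 11.08 with 1% ethanol, and 12.63 and 11.23 with 1.5% ethanol. The 3 replicate 1 arrays all lay above the 3 replicate 2 arrays, within each group, by 1.61 log2 units on average. This was the highest such difference among the 243 zebrafish probes. Of these, 17 had all replicate 1 arrays above all replicate 2 arrays and 18 had them all below. Among the members, ZF_miR_18 and ZF_miR_23 also had replicate 1 above, and miR-737, miR-738, ZF_miR_16 and ZF_miR_24 had it below; ZF_miR_16 and ZF_miR_18 are named here after their values were seen. The spots of miR-726 agreed closely on each array, with coefficients of variation of 3.57% to 9.42%. Its dose differences were small beside this spread: 0.26 for 1% ethanol minus control, 0.59 for 1.5% ethanol minus control and 0.34 for 1.5% minus 1% ethanol, each with an SE of 0.85 and limma adjusted p of 0.941, 0.964 and 0.911. With 1 array left out, the difference between 1.5% ethanol and control ran from −0.60 to 1.78. Between arrays of the same slide, the differences were −0.41 for 1% ethanol minus control, 2.49 for 1.5% ethanol minus control and 0.15 for 1.5% minus 1% ethanol. With the slide as a block, miR-726 differed by 1.57 between 1.5% ethanol and control (limma adjusted p = 0.0433). That fit gave every probe the same spread, so the spread of miR-726 itself did not enter this p-value.

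miR-737, from within the clathrin adaptor gene ap2m1b, had nearly the same level on 5 arrays. It was 10.64 and 11.04 in control, 10.80 and 10.98 with 1% ethanol, and 9.57 and 10.82 with 1.5% ethanol. The low value, on 1.5% ethanol replicate 1, came from 1 of 3 kept spots. That spot read 200 units, while the other 2 read 1738 and 1724. In the first of the 2 print blocks that hold this probe, the spots of all 6 arrays read between 1685 and 2190 units. In the second print block, 6 spots were kept, from 200 to 2123 units. The log2 difference between 1.5% ethanol and control was −0.65 (SE 0.41, limma adjusted p = 0.964). It was −0.20 from the first print block alone and −1.80 from the second alone, and −0.02 without 1.5% ethanol replicate 1. At 1% ethanol the difference from control was 0.05 (SE 0.41, limma adjusted p = 0.982). Within slides, the differences were 0.16 for 1% ethanol minus control, −1.48 for 1.5% ethanol minus control and −0.16 for 1.5% minus 1% ethanol.

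miR-724, from within the copine gene cpne5b, was lower on both 1.5% ethanol arrays than on both control arrays without passing the test. Its level was 9.08 and 9.42 in control, 8.80 and 9.27 with 1% ethanol, and 8.35 and 8.86 with 1.5% ethanol. The 1% arrays overlapped both other groups. The median of its spots was 1.52 and 2.19 times the limit in control, 1.22 and 1.85 times with 1% ethanol, and 0.913 and 1.66 times with 1.5% ethanol. The log2 difference was −0.65 for 1.5% ethanol minus control (SE 0.27, limma adjusted p = 0.941), −0.21 for 1% ethanol minus control (SE 0.27, adjusted p = 0.916) and −0.44 for 1.5% minus 1% ethanol (SE 0.27, adjusted p = 0.869). Within slides, the same 3 comparisons gave −1.08, −0.28 and −0.42.

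miR-736, from within the slow and cardiac myosin gene myh7, gave a high signal on 3 arrays and a far lower one on the other 3. Its level was 12.16 and 8.78 in control, 6.93 and 8.43 with 1% ethanol, and 12.38 and 12.73 with 1.5% ethanol. Control replicate 1 and both 1.5% ethanol arrays were high, with kept spots of 5990 to 7417 units. Control replicate 2 and both 1% ethanol arrays were low, with kept spots of 96 to 506 units. The 2 control arrays thus lay on opposite sides of this gap. The range over the 6 arrays, 5.80 log2 units, was the widest of the 243 zebrafish probes.

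For miR-736 the log2 difference was −2.79 for 1% ethanol minus control (SE 1.07, limma adjusted p = 0.676), with the 1% arrays below both control arrays. It was 2.08 for 1.5% ethanol minus control (SE 1.07, adjusted p = 0.964), with the 1.5% arrays above both. It was 4.88 for 1.5% minus 1% ethanol (SE 1.07, limma unadjusted p = 0.0036, adjusted p = 0.291). The median of its spots was 15.1 and 1.32 times the limit in control, 0.301 and 0.941 times with 1% ethanol, and 16.6 and 26.6 times with 1.5% ethanol. On the 1% arrays 0 and 2 of 4 kept spots exceeded the limit, so differences from the 1% group rest on signal under or near it. Without control replicate 1 the differences from control were −1.10 with 1% and 3.77 with 1.5% ethanol. Without control replicate 2 they were −4.48 and 0.39. The 1.5% and 1% arrays printed on the same slide differed by 4.30, the 1% and control arrays of another slide by −5.23, and the 1.5% and control arrays of the third by 3.60. With the slide as a block, miR-736 passed in all 3 comparisons, at −3.72 for 1% ethanol minus control (limma adjusted p = 1.4e-13), 2.09 for 1.5% ethanol minus control (0.000621) and 5.81 for 1.5% minus 1% ethanol (1.25e-28). That fit gave every probe the same spread, so the wide spread of miR-736 between arrays did not enter these p-values. The 2 spots that the scanner software marked to be ignored, left out of these values, lay between the high and low ranges: 1289 units on control replicate 2 and 1067 units on 1.5% ethanol replicate 2.

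The print blocks that hold miR-736 also held 6 other miRNA probes detected on at least 5 arrays. On 1% ethanol replicate 1 these 6 had a median deviation of −2.47 log2 units from their own medians over the arrays, and 4 of the 6 were lower by more than 1 unit. miR-736 itself deviated by −3.54 there. On 1% ethanol replicate 2 the 6 neighbours had a median of −0.27 and 2 of them were lower by more than 1 unit, while miR-736 lay at −2.05. On control replicate 2 the neighbours had a median of 0.08, while miR-736 lay at −1.69. On control replicate 1 and the 1.5% ethanol arrays the neighbours had medians of 0.22, 0.22 and −0.44, while miR-736 lay at 1.69, 1.91 and 2.26. The part of the print position in the difference between doses was not tested.

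ZF_miR_20 was the only ZF_miR probe detected on more than 2 arrays. Its level was 9.59 and 8.94 in control, 6.66 and 10.97 with 1% ethanol, and 12.22 and 10.60 with 1.5% ethanol. The 1.5% arrays lay above both control arrays, while 1 of the 1% arrays was the lowest of all and the other lay between the 1.5% arrays. The range, 5.56 log2 units, was the third widest of the 243 probes. On the control arrays its spots disagreed: on replicate 1 the first print block read 145 and 237 units and the second 5732 and 5398 units. On control replicate 2 the kept spots read 891, 898 and 115 units. On 1% ethanol replicate 1 all 4 spots lay between 90 and 115 units. On each of the other 3 arrays the 4 spots agreed, at 1797 to 2363 units (1% ethanol replicate 2), 5434 to 6054 units (1.5% ethanol replicate 1) and 1251 to 1683 units (1.5% ethanol replicate 2).

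For ZF_miR_20 the log2 difference was −0.45 for 1% ethanol minus control (limma adjusted p = 0.94), 2.15 for 1.5% ethanol minus control (adjusted p = 0.964) and 2.60 for 1.5% minus 1% ethanol (adjusted p = 0.769), each with an SE of 1.33. Without 1% ethanol replicate 2 the last of these was 4.75 with an adjusted p of 0.0338, and without 1% ethanol replicate 1 it was 0.44; over all alternatives its adjusted p ran from 0.00224 to 0.97. The value thus rests on which 1% array is used. Within slides, the differences were −2.92 for 1% ethanol minus control, 3.28 for 1.5% ethanol minus control and −0.37 for 1.5% minus 1% ethanol. With the slide as a block, ZF_miR_20 differed by 1.82 between the doses (limma adjusted p = 0.00224). That fit gave every probe the same spread, so the spread of ZF_miR_20 itself did not enter this p-value. The print blocks of ZF_miR_20 held 7 other miRNA probes detected on at least 5 arrays. On 1% ethanol replicate 1 these had a median deviation of 0.07 from their own medians over the arrays, while ZF_miR_20 lay at −3.43. The part of the print position was not tested here either.

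Among the other registered probes, 5 were detected on a single array each. There, each had as many kept spots over the limit as under it, the least that counts as detected. For these, a group with all its arrays under the limit has no firm level, so no minimum fold is stated. On control replicate 2, a spot of 277 units, at the limit of 276.5 units, had a level of 8.23. The log2 differences given below for probes detected on few arrays thus rest on signal under or near the limit.

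miR-725 was detected on 1% ethanol replicate 2. Its level was 7.22 and 7.14 in control, 7.67 and 8.41 with 1% ethanol, and 7.78 and 7.06 with 1.5% ethanol. Both 1% arrays lay above both control arrays, while the 1.5% arrays overlapped each group. On 1% ethanol replicate 2 it had 2 kept spots, of 161 and 702 units. The log2 difference was 0.87 for 1% ethanol minus control (SE 0.33, limma adjusted p = 0.676), with 1 of 2 ethanol arrays detecting the probe. For 1.5% minus 1% ethanol it was −0.63 (SE 0.33, limma adjusted p = 0.802), with overlapping arrays.

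miR-732, which lies between the muscle kinase gene spegb and ctdsp1, was detected on 1.5% ethanol replicate 2. Its level was 7.44 and 7.71 in control, 7.69 and 7.82 with 1% ethanol, and 7.98 and 7.86 with 1.5% ethanol. The 1.5% arrays lay above both control arrays and both 1% arrays, by narrow margins. The log2 difference was 0.35 for 1.5% ethanol minus control (SE 0.18, limma adjusted p = 0.964). It ran from −0.24 to 1.32 over the alternatives, so its direction depended on the processing. In the first print block the spots read 213 and 224, and 273 and 232 units in control, against 226 and 235, and 182 and 137 units with 1.5% ethanol. In the second, control replicate 1 kept no spot and control replicate 2 read 156 and 170 units. The kept second-block spots with 1.5% ethanol read 503 units on replicate 1, and 380 and 375 units on replicate 2.

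miR-722, the rac2-targeting miRNA, was detected on control replicate 1 only. Its level was 7.80 and 6.94 in control, 6.93 and 7.06 with 1% ethanol, and 7.01 and 6.92 with 1.5% ethanol. Apart from control replicate 1, the arrays lay between 6.92 and 7.06. On control replicate 1 the first print block read 621 and 500 units and the second 134 and 241 units. The limma adjusted p was 0.874 for 1% ethanol and 0.964 for 1.5% ethanol against control.

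miR-738 was detected on 1% ethanol replicate 2 and miR-739 on 1.5% ethanol replicate 1. The level of miR-738 was 7.00 and 7.73 in control, 7.25 and 8.13 with 1% ethanol, and 7.54 and 7.77 with 1.5% ethanol. That of miR-739 was 7.43 and 7.57 in control, 7.43 and 7.16 with 1% ethanol, and 7.95 and 7.31 with 1.5% ethanol. For both probes the 3 groups overlapped in every pair. On 1.5% ethanol replicate 1, miR-739 read 552 and 643 units in the first print block and 177 and 159 units in the second.

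Of the remaining ZF_miR probes, 6 were detected only on 1.5% ethanol replicate 1: ZF_miR_5, ZF_miR_8, ZF_miR_9, ZF_miR_11, ZF_miR_21 and ZF_miR_23. The sources used here name no target or function for them. Of the 6, only ZF_miR_9 had an unadjusted p under 0.05. Its level was 7.47 and 7.28 in control, 7.65 and 7.53 with 1% ethanol, and 8.11 and 8.19 with 1.5% ethanol. Both 1.5% arrays lay above the other 4, and both 1% arrays lay above both control arrays. Only 1 of 2 arrays of the higher dose detected it, replicate 1, which had the lower level of the 2. The log2 difference was 0.77 for 1.5% ethanol minus control (limma unadjusted p = 0.00313, adjusted p = 0.38). It was 1.35 from the first print block alone and 0.02 from the second. For 1.5% minus 1% ethanol the difference was 0.56 (limma adjusted p = 0.488), with 1.16 and −0.08 from the same blocks. Neither difference was thus seen in the second print block alone. With marked spots kept, the difference from control was 0.33.

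The spots of ZF_miR_9 on the 1.5% ethanol arrays lay on both sides of the limit. On 1.5% ethanol replicate 1 its spots read 482 and 415 units in the first print block and 196 and 411 units in the second. On 1.5% ethanol replicate 2 they read 568 and 251 units in the first and 226 and 176 units in the second.

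The level of ZF_miR_11 was 7.77 and 7.70 in control, 7.67 and 7.73 with 1% ethanol, and 8.23 and 7.80 with 1.5% ethanol. Its 1.5% arrays lay above the other 4, and their log2 difference from control was 0.28 (SE 0.20, limma adjusted p = 0.964). On 1.5% ethanol replicate 1 its spots read 690 and 638 units in the first print block and 226 and 218 units in the second. On control replicate 1 the kept spot of the first print block read 532 units, and those of the second 214 and 213 units. ZF_miR_8 gave 7.46 and 7.64 (control), 7.70 and 7.56 (1% ethanol), and 8.14 and 7.49 (1.5% ethanol). ZF_miR_5 gave 7.35 and 7.78 (control), 7.56 and 7.50 (1% ethanol), and 7.92 and 7.45 (1.5% ethanol). Both overlapped in each comparison. ZF_miR_21 gave 7.35 and 7.77 (control), 6.95 and 7.23 (1% ethanol), and 7.82 and 7.43 (1.5% ethanol). ZF_miR_23 gave 7.21 and 6.87 (control), 7.76 and 6.99 (1% ethanol), and 7.72 and 6.96 (1.5% ethanol). Its replicate 1 arrays lay above its replicate 2 arrays, whereas the groups overlapped. For ZF_miR_21 the 1% arrays lay below all other arrays (limma adjusted p = 0.874 for 1% ethanol against control and 0.633 for 1.5% against 1% ethanol).

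ZF_miR_24 was detected on the replicate 2 arrays of both ethanol doses, and ZF_miR_2 on control replicate 1 only. The level of ZF_miR_24 was 7.59 and 7.68 in control, 7.54 and 8.01 with 1% ethanol, and 7.33 and 8.00 with 1.5% ethanol. That of ZF_miR_2 was 7.58 and 7.60 in control, 7.68 and 7.39 with 1% ethanol, and 7.68 and 7.29 with 1.5% ethanol. In both probes each ethanol group spanned the control arrays. ZF_miR_2 was undetected on replicate 1 of both ethanol doses, at 7.68 each, above its level of 7.58 where it was detected.

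The other 28 members, 12 registered and 16 ZF_miR, were detected nowhere. The levels of the 12 lay between 6.58 and 7.98 with a median of 7.17, and those of the 16 between 6.57 and 8.16 with a median of 7.14. Both miRNAs within the opsin gene tmtopsb, miR-727 and miR-728, and both star-strand probes were among the 12. So were miR-729, the neighbour of the ultraviolet cone opsin gene, and miR-731, whose partner miR-462 was also detected on 0 arrays. The widest range over the 6 arrays was 0.86 log2 units in the registered probes (miR-730) and 1.24 in the ZF_miR probes (ZF_miR_25). In ZF_miR_25 it came from a single spot of 1220 units on 1.5% ethanol replicate 1, whose 2 other kept spots read 182 and 116 units. The highest level of miR-730, on 1.5% ethanol replicate 2, likewise came from a single spot of 636 units, beside spots of 108, 108 and 89 units. For these 28 no fold is given, since both groups of each comparison lay under the limit.

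Of these dim probes, ZF_miR_22 and ZF_miR_15 had an unadjusted p under 0.05. The level of ZF_miR_22 was 7.11 and 6.76 in control, 7.48 and 7.56 with 1% ethanol, and 6.71 and 6.64 with 1.5% ethanol. Its 1% arrays lay above all others and its 1.5% arrays below all others. The limma adjusted p was 0.291 for 1.5% against 1% ethanol (unadjusted p = 0.00334) and 0.676 for 1% ethanol against control (unadjusted p = 0.0175). At a single position of the second print block the spots read 997 and 449 units on the 1% arrays. The same position read 113 and 89 units on the 1.5% arrays and 121 and 109 units on the control arrays. With the probe under the limit on all 6 arrays, no fold is given for it.

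The level of ZF_miR_15 was 7.15 and 6.90 in control, 7.54 and 7.53 with 1% ethanol, and 7.20 and 7.08 with 1.5% ethanol, so both 1% arrays lay above the other 4 (limma adjusted p = 0.676 for 1% ethanol against control and 0.633 for 1.5% against 1% ethanol). Among the other dim probes with the smallest p in a direction, ZF_miR_13, miR-729 and miR-733 were on the lower side with 1% ethanol against control and miR-731 on the higher side, with limma adjusted p of 0.874 each. For 1.5% ethanol against control, miR-727, miR-731 and ZF_miR_25 were on the higher side and ZF_miR_10, ZF_miR_13 and ZF_miR_3 on the lower, with adjusted p of 0.964 each. For 1.5% against 1% ethanol, miR-729 (adjusted p = 0.646), miR-730 (adjusted p = 0.802) and ZF_miR_6 (adjusted p = 0.869) were on the higher side, and the star-strand probe miR-727* (adjusted p = 0.766) on the lower. The 15 members outside the naming rule, all undetected, had larger p-values in each direction of each comparison.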

How the data were processed

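The scanner files hold raw foreground and local background intensity for each of 5040 spots of 1 channel, per the file headers. The authors' deposited table is on a log2 scale, and 270 of its 276 values for the 46 members were rebuilt to within 0.001 as the mean log2 intensity of kept spots of at least 100 units minus that of the Ncode_Control spots of the array; 6 were missing. Its column medians ran from −0.20 to 0.48. The direction of its values follows the intensity.

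Intensities were corrected by normexp (offset 50), log2 transformed and then quantile normalised across the 4312 spots of miRNA probes. Marked spots (Ignore Filter of the scanner file), 4.64% to 11.7% per array, were dropped; the mean of the kept spots is a probe's level. The limma fit (limma 3.58.1 in R 4.3.3) of all 6 arrays had 3 residual and 3.15 prior degrees of freedom, and its p-values were two-sided. The number of arrays limits the precision.

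Named were the 18 members detected on at least 1 array and, of the others, the 3 lowest p-values per direction and comparison, 31 in all. The members and lists were chosen with earlier results of these data known. Per the file headers, 3 slides held 2 arrays each, of different groups, and the slide was tried as a block. Replicate numbers were not used to pair the arrays in the main fit, and were tried as a block. Deviations from the group means correlated at −0.03 (control with 1% ethanol), 0.27 (control with 1.5% ethanol) and −0.04 (1% with 1.5% ethanol). Whether arrays of the same number belong together is not known. Other alternatives were background correction, normalisation, spot summary, marked spots, print block, arrays left out and the limit itself. Spanning genes and neighbours were read from the positions in the RefSeq gene table, without regard to strand or introns. No coordinates are given, and the arrays were not mapped to a genome.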

Additional observations from a re-analysis of the deposited data

Results flagged for a closer look

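miR-736 lay below both control arrays on both 1% ethanol arrays and above them on both 1.5% ethanol arrays. The control arrays were themselves far apart, at 12.16 and 8.78. The levels were 6.93 and 8.43 with 1% ethanol, and 12.38 and 12.73 with 1.5% ethanol. On 1% ethanol replicate 1, 4 of 6 other detected miRNA probes in its print blocks were also lower than their own medians by more than 1 log2 unit. On 1% ethanol replicate 2 this held for 2 of the 6, and on control replicate 2 for 0. The difference between the doses, 4.88 log2 units for 1.5% minus 1% ethanol, was tested by limma without reaching the threshold (adjusted p = 0.291). Over the alternatives its limma adjusted p ran from 1.25e-28 to 0.584 and the difference from 4.13 to 5.81, and it passed in 4 of 22. The lowest of these p-values came from the fit with the slide as a block, which gave every probe the same spread. The median of the miR-736 spots lay under the limit of detection on both 1% ethanol arrays. Only probes detected on at least 1 array were flagged, a requirement set after the values of the undetected ZF_miR_22 were seen. The limma adjusted p of ZF_miR_22 for 1.5% against 1% ethanol was also 0.291.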

How the results depend on the processing

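Members past the threshold numbered 0 in each of the 4 comparisons, and other settings gave up to 3. For 1.5% against 1% ethanol, miR-736 was the 1 member called without normalisation (limma adjusted p = 0.0241) and with scaling to the Ncode_Control spots (0.0302). Each of these settings called 2 of the 243 probes. In the authors' deposited table miR-736 was 1 of 3 probes called there (limma adjusted p = 0.00883), and 1 of the 3 called for any difference was a member. With the second print block alone, added after the data were seen, ZF_miR_22 was the 1 probe called of the 243 (limma adjusted p = 0.046). With the slide as a block, members were 1 of 3 probes called for 1% ethanol against control (miR-736). They were 2 of 2 for 1.5% ethanol against control (miR-726 and miR-736). For 1.5% against 1% ethanol they were 2 of 4 (miR-736 and ZF_miR_20), and for any difference 3 of 6. That fit had 1 spread shared by all probes, as its prior degrees of freedom were infinite. With an array left out the count for 1.5% against 1% ethanol ran from 0 to 1, the call being ZF_miR_20 without 1% ethanol replicate 2. With the replicate block 0 members passed in every comparison. Members detected on at least 1 array numbered 18 (9 registered and 9 ZF_miR), against 6 at the 99th percentile of the empty spots (5 and 1) and 5 when every kept spot had to exceed the limit (4 and 1). The counts were 7 and 6 when the mean of the kept spots had to exceed the limit, and 10 and 6 with marked spots kept. The equal counts of the subclasses thus did not hold under these alternatives. The 5 members with every kept spot over the limit were among the 5 detected on at least 5 arrays. miR-736 kept its direction in all 3 comparisons under every alternative, while miR-726 changed sign in each comparison under at least 1 of them. For 1% ethanol against control, miR-724, miR-737 and ZF_miR_20 also changed sign under at least 1 alternative. Scaling moved the median of all probes by up to 0.42 (1.5% ethanol minus control, Ncode_Control spots). The low signal over background limits the 28 members under the empty-spot limit.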
